A study of Homo sapiens with 38 samples.

Results

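ZFP36, ZFP36L1, ZFP36L2, ZC3H12A, RC3H1, BTG1, BTG2 and TOB1 are 8 genes of messenger RNA decay and growth restraint. They were examined by every GATA3, BHLHE40 and H3K27ac region that overlapped the RefSeq gene record or the 50 kb to each side of it. These 8 windows, of 20033 protein-coding genes in the gene table, held 161 of the 168784 regions of the 3 lists. The cells were Jurkat, an established human T-cell leukaemia line, transduced with a control lentivirus (labelled Ctrl_LV) and then stimulated. The stimulus was 50 ng/ml of the phorbol ester PMA plus 500 ng/ml of the calcium ionophore ionomycin, which together mimic signalling from the T-cell receptor. The sample labels give 5 hours of stimulation and the treatment protocol gives 2 hours. The series has 38 samples in 19 groups of 2. The values below come from the lists of 3 of these groups, in which chromatin was immunoprecipitated with an antibody against GATA3, BHLHE40 or H3K27ac. All 3 groups carry the control virus and all were stimulated. The other 16 groups, labelled sg70, sgCtrl, BHLHE40_LV or, with H3K27me3, Ctrl_LV, were not analysed here. No effect of a guide, of the BHLHE40 virus or of stimulation was therefore measured.

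The proteins of the ZFP36 family bind AU-rich elements in messenger RNAs through paired zinc fingers and bring in the CCR4-NOT deadenylase complex, which shortens the poly(A) tail. ZC3H12A (Regnase-1) is an endonuclease that cuts stem-loops in cytokine messages, and RC3H1 (Roquin-1) binds similar stem-loops and recruits decay factors. BTG1, BTG2 and TOB1 belong to the BTG/TOB family, bind CCR4-NOT and restrain proliferation. In T cells these genes limit the output of cytokine messages and help to keep resting cells quiescent. GATA3 is a zinc finger factor of the T lineage that binds GATA motifs, BHLHE40 is a basic helix-loop-helix factor that binds E-boxes, and H3K27ac marks active promoters and enhancers.

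There is 1 list per group and not 1 per sample, so no value per sample and no spread between replicates can be given. No test was made, and the main counts are set beside the same count over all protein-coding genes or over the whole list. How deeply the libraries were sequenced is not known from these files. The signal value is the authors' enrichment per region. It is given with its percentile, the percent of regions of the same list with a lower value, and signal values are never compared between lists. The factor lists were named as kept at an irreproducible discovery rate (IDR) of 0.05. The H3K27ac list was pooled and includes many weak regions, so regions whose −log10 q reaches 5 are also counted. They make up 25.1% of that list. The T lineage of the cells was checked on the H3K27ac list: 6 of 6 T-lineage genes (CD3E, CD3D, CD28, LCK, CD2 and CD5) had a region of that strength within 1 kb of a start, against 0 of 3 B-lineage and 0 of 2 monocyte genes and 1 of 2 liver genes (APOA1).

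GATA3 contributed 27 regions to the 8 windows, BHLHE40 33 and H3K27ac 101, of which 46 reached a −log10 q of 5. Every window held all 3 kinds. That is common, since 76.1% of protein-coding genes had a GATA3 region in the same window, 80% a BHLHE40 region and 92.6% an H3K27ac region. GATA3 regions were most numerous at ZFP36L1 and BTG1, with 6 each, followed by ZFP36 and TOB1 with 4, ZFP36L2, ZC3H12A and BTG2 with 2, and RC3H1 with 1. The protein-coding median was 2, and 90% of protein-coding genes had fewer than 6. BHLHE40 regions followed another order: 9 at ZFP36, 6 at BTG2, 5 at ZFP36L1 and at ZC3H12A, 3 at ZFP36L2, 2 at BTG1 and at TOB1, and 1 at RC3H1, against a median of 2. The 9 at ZFP36 exceeded the number at 95.6% of protein-coding genes, in a window shared by 7 protein-coding genes. The window of BTG1 held no other protein-coding gene, nor did that of ZFP36L1. H3K27ac regions ranged from 3 at TOB1 to 21 at ZFP36, against a median of 8.

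**Figure D1:**
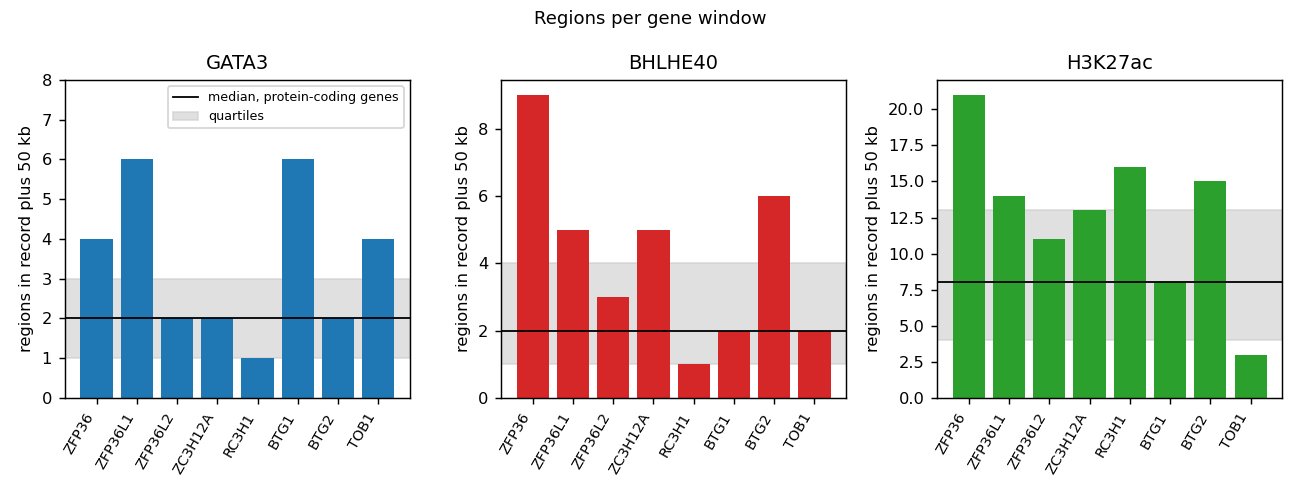
Number of regions (y axis) in the gene record plus 50 kb to each side for the 8 genes (x axis), 1 panel per list; bars are counts from a list that stands for 2 samples, the line is the median over 20033 protein-coding genes and the grey band its quartiles. ZFP36 has the most BHLHE40 (9) and H3K27ac (21) regions, ZFP36L1 and BTG1 the most GATA3 regions (6 each), and RC3H1 has 1 region of each factor.

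BHLHE40 lay at the start of 7 of the 8 genes, all but RC3H1. GATA3 lay at the start of 3 (ZFP36L1, BTG1 and TOB1) and H3K27ac at that of 7, all but ZC3H12A. A start is a RefSeq transcript start of the promoter table, and a region counted when it came within 1 kb. At a −log10 q of 5 or more, H3K27ac lay at 6 starts, against 48.5% of protein-coding genes, since that at RC3H1 was weaker. For ZFP36L2 both ends of the record were used. Over all protein-coding genes 47.1% had BHLHE40, 22.2% GATA3 and 55.3% H3K27ac at a start. No start had GATA3 without BHLHE40, a pattern of 1.54% of protein-coding genes. All 3 lists met at ZFP36L1, BTG1 and TOB1, a pattern of 20.3% of protein-coding genes. BHLHE40 and H3K27ac met without GATA3 at ZFP36, ZFP36L2 and BTG2, a pattern of 24.9%. Most protein-coding genes with H3K27ac at a start thus had BHLHE40 there too.

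The BHLHE40 regions at these starts covered most of the range of their list. At ZFP36L1 the signal values were 20.2 at the outer start (percentile 88) and 18.3 at the inner start (percentile 85). BTG1 had 19.5 (percentile 86.9) and ZFP36L2 12.7 (percentile 69.5). TOB1 followed with 11 (percentile 60.7), then ZFP36 with 7.52 (percentile 33.2), ZC3H12A with 6.57 (percentile 22.8) and BTG2 with 5.25 (percentile 9.39). The median of these 8 regions was 11.8, and 9186 BHLHE40 regions at protein-coding starts had a median of 10.1. GATA3 was weak at most starts where it was listed: 6.51 and 5.40 at ZFP36L1 (percentiles 10.5 and 3.94) and 5.90 at TOB1 (percentile 6.44). Regions at starts were also lower over the whole GATA3 list, where 4204 of them had a median of 9.13, against 11.7 elsewhere. BTG1 stood higher, with 16.4 (percentile 70.3). The weak GATA3 regions had IDR scores of 698, 708 and 579, so a stricter score of at least 830 (IDR of 0.01), met by 76.2% of the GATA3 list, left GATA3 at the start of BTG1 only, among 15.7% of protein-coding genes. BHLHE40 was still listed at the start of the same 7 genes at that score, met by 79.6% of its list.

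RC3H1 is set apart by its annotation as well. Its record spans 91.3 kb, and the listed start is at position 173993072, inside the record. The H3K27ac region within 1 kb of that start was weak (signal value 3.62, −log10 q 3.96). The upper end of the record, 29.3 kb from the listed start and next to the divergent noncoding gene RC3H1-DT, held a BHLHE40 region (chr1:174022094-174022776, signal value 7.86), a GATA3 region (chr1:174022114-174022439, signal value 6.24) and H3K27ac regions with signal values of 5.36, over the BHLHE40 summit, and 5.51, beyond it and inside RC3H1-DT. Counted by either end of the record, a setting chosen after the data were seen, 8 of 8 genes had BHLHE40, against 46.9% of protein-coding genes, 3 had GATA3 (RC3H1, BTG1 and TOB1), against 22.8%, and 7 had H3K27ac, against 56.3%.

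In 4 of the 7 genes with a listed start a BHLHE40 summit lay within 50 bp of it, against 11.7% of protein-coding genes with a listed start. It was 4 bp downstream of the inner start of ZFP36L1, 23 bp upstream of BTG1, 26 bp upstream of ZC3H12A and 26 bp upstream of the inner start of TOB1. The limit of 50 bp was not planned in advance. The 11.7% is a share of genes with and without BHLHE40 at a start. Among genes with BHLHE40 at a start the share was not computed, so unusual closeness of the summits was not tested. The nearest summits beyond it were 92 bp from the start at BTG2 and 143 bp at ZFP36. The 250 bases before the starts of ZC3H12A and BTG1 are shown because they hold that summit and lie outside the gene record. Those of ZFP36L1 and TOB1 lie inside the record and are given by their motifs. The stretches are RefSeq sequences on GRCh38.p14, 5′ to 3′ on the strand of the gene, and each ends at the base before the start. Capitals mark CANNTG (the general E-box), TATAAA (a core promoter element) and CCAAT on either strand.
ZC3H12A, chr1:37474330-37474579, plus strand: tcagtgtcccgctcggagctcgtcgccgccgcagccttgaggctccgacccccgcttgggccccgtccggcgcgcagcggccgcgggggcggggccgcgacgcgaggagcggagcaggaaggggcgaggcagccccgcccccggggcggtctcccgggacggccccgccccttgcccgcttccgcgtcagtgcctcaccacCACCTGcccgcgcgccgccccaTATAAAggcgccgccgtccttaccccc
BTG1, chr12:92145847-92146096, minus strand: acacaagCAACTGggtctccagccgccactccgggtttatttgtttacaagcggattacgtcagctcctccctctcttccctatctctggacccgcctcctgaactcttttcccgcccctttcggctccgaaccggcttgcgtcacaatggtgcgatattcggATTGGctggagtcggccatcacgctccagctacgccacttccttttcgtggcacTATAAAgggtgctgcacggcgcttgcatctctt

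Positions of motifs are those of their first base, with negative numbers upstream of the start. BTG1 has TATAAA at -33 and ZC3H12A at -27, both within 10 bases of the BHLHE40 summit. Both starts were chosen for a summit within 50 bp, so this closeness follows in part from the choice. RC3H1, with no BHLHE40 region at its listed start, has TATAAA at -162. ZFP36L1 holds TGACGTCA, the full cyclic AMP response element, at -52. CCAAT is on the reverse strand of BTG1 at -87, where it reads ATTGG, and on the forward strand of TOB1 at -186. CANNTG occurs at -49 in ZC3H12A, at -243 in BTG1 and at -219 in ZFP36L1. These are stretches of the starts chosen by summit place. In the other stretches of the genes, CANNTG is also found at RC3H1 and at the outer starts of TOB1 and ZFP36L1. CCAAT is also found at BTG2 and at the outer start of ZFP36L1. In the 300 bases around each start, from 250 before to 50 after, these motifs are found in 68.7% (CANNTG), 11.5% (TATAAA), 1.85% (TGACGTCA) and 34.6% (CCAAT) of 35116 RefSeq stretches. The last 3 were searched after the sequences had been seen.

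CACGTG, the E-box that BHLHE40 is known to prefer and a special case of CANNTG, was in none of the 9 stretches of the 7 genes with an entry. ZFP36L2 was not among them. CACGTG is rare in such stretches, at 7.26% of all, 11.2% of the 11437 overlapped by a BHLHE40 region and 5.37% of the rest. The looser CANNTG was in 59.1% of the overlapped stretches and 73.3% of the rest. GATAA was found in the stretch of RC3H1 only, at -6, against 22.7% of all stretches. No GATA3 region lay at that start. Over all stretches GATAA was in 18.6% of the 4927 overlapped by a GATA3 region and 23.4% of the rest. TGANTCA, the AP-1 motif, was in none of the stretches of the genes, against 7.71%. The stretches of ZC3H12A, TOB1 (inner start), ZFP36 and BTG2 were rich in G and C, at 79.0%, 78.7%, 74.7% and 73.3%, where the median was 58.7%. That of RC3H1 had 28.7% and no CG.

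**Figure D2:**
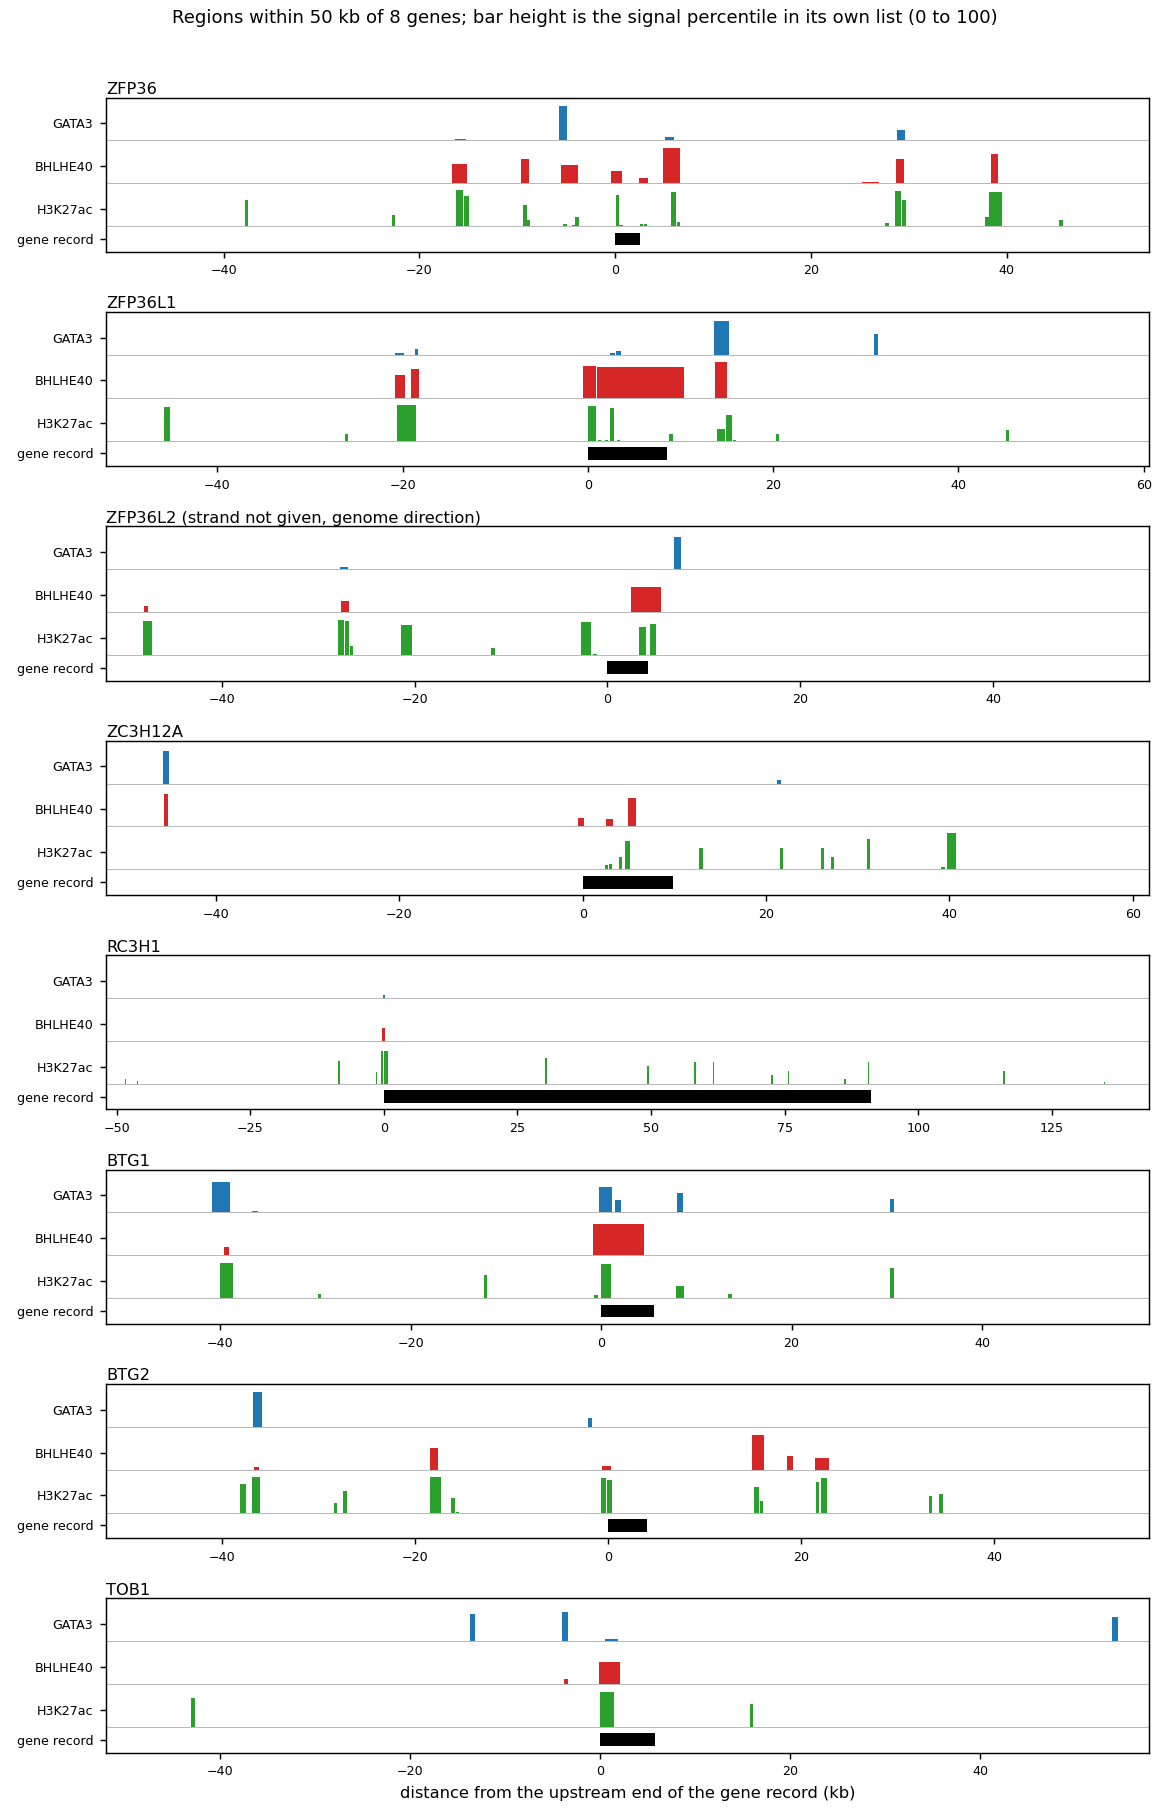
Regions of the 3 lists along the 8 windows (x axis, kb from the upstream end of the gene record in the direction of transcription; for ZFP36L2 from the lower end in genome direction); bar height is the signal percentile in the region's own list and the black bar is the gene record. BHLHE40 regions cover most of the ZFP36L1 and BTG1 records, and the tallest GATA3 bars stand away from the starts.

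ZFP36 encodes tristetraprolin, the founding member of its family, and its record (chr19:39406847-39409407) lies among other genes. Its own start held a BHLHE40 region (chr19:39406393-39407535) and H3K27ac regions with signal values of 4.70 and 2.28, but no GATA3. The strongest GATA3 region of the 8 windows stood 5.33 kb upstream of this start, outside gene records (chr19:39401136-39401970, signal value 52.6, rank 1337 of 29009). There H3K27ac was low in its list, with a signal value of 2.45 (percentile 5.49), and the overlapping BHLHE40 region had 9.42 with its summit 1142 bp away.

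Downstream of ZFP36 the picture was reversed. A BHLHE40 region 5.69 kb past the start (chr19:39411734-39413463, signal value 34.0, rank 999 of 26205) overlapped the records of the transfer RNA gene TRI-TAT1-1 and of PLEKHG2. GATA3 was listed there with 6.22, at percentile 8.23. A weaker BHLHE40 region just past the end of ZFP36 (signal value 5.70) overlapped the record of MIR4530. The strongest H3K27ac region of the window, and of all 8, was at the starts of PAF1 and MED29 (signal value 14.7, rank 595 of 113570), 15.9 kb from the ZFP36 start.

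ZFP36L1, on chromosome 14, was the gene most covered by BHLHE40. A single region of 9363 bp (chr14:68785911-68795273) spanned its inner start, most of its record and the bases beyond its lower end, and a second region of 1386 bp covered the outer start. Only 0.363% of BHLHE40 regions are at least 5000 bp wide, and BTG1 has another, of 5363 bp (chr12:92141353-92146715), over most of its record. Of the 33 BHLHE40 regions in the windows, 4 were at least 2000 bp wide, against 4.74% of the list. They lay at the starts of ZFP36L1, BTG1, ZFP36L2 (3046 bp) and TOB1 (2161 bp), and 5.41% of protein-coding genes had a region of that width at a start. Neither limit of width, 2000 or 5000 bp, was planned in advance. The next widest BHLHE40 region in the windows had 1805 bp.

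For both factors the strongest place at ZFP36L1 lay 5.46 kb past the lower end of the record, outside gene records. GATA3 had a signal value of 41.1 there (chr14:68781026-68782620, percentile 92.8) and BHLHE40 38.5 (chr14:68781268-68782519, rank 727 of 26205), the highest BHLHE40 value in the 8 windows, with summits 17 bp apart. H3K27ac was modest there, at 3.64 and 3.00. In the other direction, 18.5 to 20.6 kb upstream of the outer start, an H3K27ac region of 2108 bp (chr14:68814772-68816879, signal value 11.2, percentile 98.5) overlapped 2 BHLHE40 regions (15.5 and 11) and 2 weak GATA3 regions (7.12 and 5.67). The factors and the mark thus peaked at different places of this window.

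ZFP36L2, on chromosome 2, had the fewest factor regions of the ZFP36 family. BHLHE40 was listed at the upper end of its record (chr2:43224880-43227925, signal value 12.7), with H3K27ac regions of 3.84 and 4.40. The start of the noncoding gene LINC01126 lies there too. The strongest GATA3 region (chr2:43229260-43230050, signal value 31.8, percentile 88.8) lay 3.16 kb beyond that end and overlapped neither other list. A shared place 27.6 kb below the record held GATA3 at 5.67 and BHLHE40 at 7.19, with H3K27ac at 7.54, the highest H3K27ac value of the window.

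ZC3H12A, on chromosome 1, had more signal inside the gene than at its start. The start, shared with that of LITATS1, had a BHLHE40 region with a signal value of 6.57 and no H3K27ac region. Inside the record BHLHE40 reached 14.8 (chr1:37479465-37480429, percentile 77) at 5.25 kb, over the record of MIR6732, together with H3K27ac at 4.02 (percentile 78.7). The strongest places of both factors coincided 45.5 kb upstream, outside gene records: GATA3 at 33.7 (chr1:37428811-37429416) and BHLHE40 at 21.5 (chr1:37428854-37429327), at percentiles 89.8 and 89.6 and with summits 24 bp apart. No H3K27ac region overlapped either. The strongest H3K27ac region of the window (signal value 12.0) was at the start of the neighbour MEAF6.

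BTG1, on chromosome 12, had both factors high at its start, which lies beside that of BTG1-DT. GATA3 (chr12:92144736-92146035, signal value 16.4) and BHLHE40 (19.5) had summits 45 bp apart, and H3K27ac there was 6.36 (percentile 92.7). A second GATA3 region 1.84 kb into the gene, with 9.13, fell under the same wide BHLHE40 region. Upstream, 39.5 kb from the start and inside BTG1-DT, a divergent noncoding gene, lay the strongest GATA3 region (chr12:92184862-92186722, signal value 24.9) and the strongest H3K27ac region (7.83, percentile 95.5) of the window. BHLHE40 was weak at that place, with 6.67 (percentile 23.9), although its summit lay 18 bp from that of GATA3.

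BTG2, a family member known as a target of p53 and an immediate-early gene, had its factors spread over separate places. Its start (position 203305519 of chromosome 1) carried H3K27ac at 7.32 and 5.24, BHLHE40 at 5.25 and no GATA3. A GATA3 region of 7.87 lay 1.92 kb upstream. The strongest GATA3 region stood 36.3 kb upstream (chr1:203268741-203269672, signal value 47.7, rank 1600 of 29009) with H3K27ac at 9.10, while the overlapping BHLHE40 region had 4.99, at percentile 7.34. The strongest BHLHE40 region lay 15.6 kb downstream of the start, outside gene records (chr1:203320394-203321641, signal value 29.8, percentile 94.8), with no GATA3 and H3K27ac at 3.69. H3K27ac was highest at a further place, at LINC01353, 18.2 kb upstream (signal value 10.2, percentile 97.9), where BHLHE40 had 10.8.

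TOB1, on chromosome 17, had the fewest H3K27ac regions, 3, of which 1 had a −log10 q of at least 5. That region covered the outer start and most of the space between both starts (chr17:50866502-50867993, signal value 8.86, percentile 96.8), where TOB1-AS1 starts as well. BHLHE40 covered both starts, from 50865939 to 50868099, with 11. GATA3 was weak at the start and stronger outside it: 22.2 at 3.66 kb upstream, 18.7 at 13.4 kb upstream and 15.5 at 48.4 kb beyond the lower end of the record. None of these 3 overlapped H3K27ac, and the nearest of them overlapped BHLHE40 at 5.82.

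The strongest GATA3 region lay more than 1 kb from a start in 8 of 8 windows, with both ends of the record used for ZFP36L2. The same was true of 90% of protein-coding genes with a GATA3 region, so the 8 genes are close to the background. For BHLHE40 the strongest region was at a start in 3 windows (ZFP36L2, BTG1 and TOB1) and elsewhere in 5, where the share elsewhere was 74.8% over protein-coding genes. At RC3H1 the strongest region of each factor counted as elsewhere, although it lay at the upper end of the gene record. Regions in the top 10% of their list by signal value were found in the same 3 windows for both factors, ZFP36, ZFP36L1 and BTG2, against 17.9% of protein-coding genes for GATA3 and 21.9% for BHLHE40. For H3K27ac all 8 windows had 1 or more, against 68.8%. The plot of signal by place shows the GATA3 regions at starts low in their list with the exception of BTG1.

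**Figure D3:**
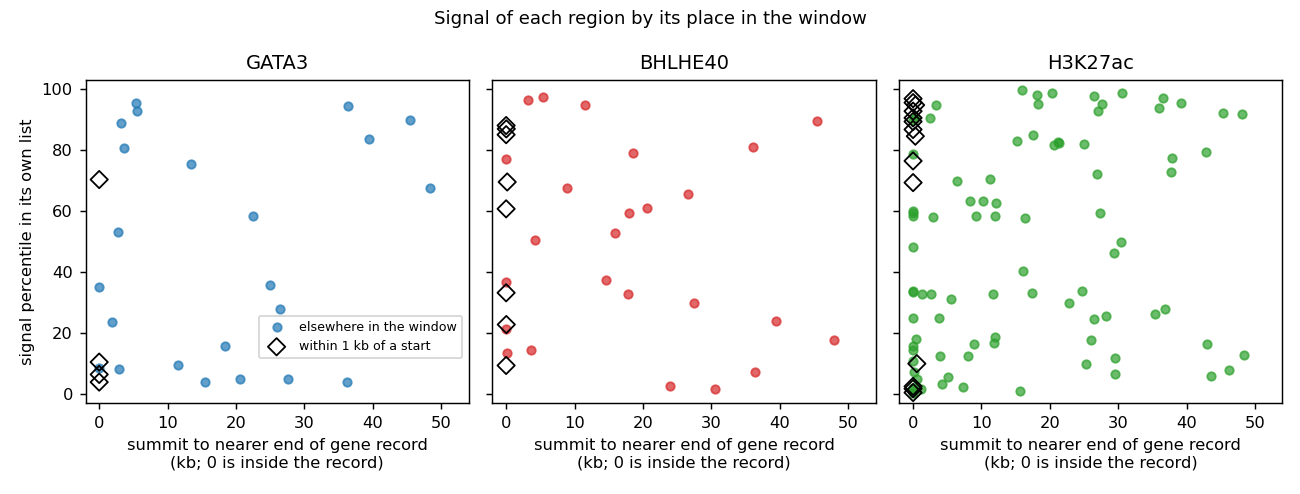
Signal percentile of each region in its own list (y axis) against the distance of its summit from the nearer end of the gene record (x axis, kb, 0 inside the record), 1 panel per list; open diamonds are regions within 1 kb of a start. GATA3 has 3 of 4 diamonds at or below percentile 10.5, while the BHLHE40 diamonds run from 9.39 to 88.

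Of the 27 GATA3 regions, 18 (66.7%, 95% Wilson interval 47.8% to 81.4%) overlapped a BHLHE40 region, where the whole list gave 48.7%. Of the 33 BHLHE40 regions, 16 (48.5%, interval 32.5% to 64.8%) overlapped GATA3, against 53% of the list. H3K27ac overlapped 18 of 27 GATA3 regions (66.7%, interval 47.8% to 81.4%, list 49.1%) and 28 of 33 BHLHE40 regions (84.8%, interval 69.1% to 93.3%, list 76.4%). These intervals cover counting only. They treat regions as independent, although all come from 8 windows and some share an overlap partner. Each of the 4 holds the value of the whole list, but they are no test of a difference from it. Among GATA3 regions, 15 of the 18 shared with BHLHE40 and 3 of the 9 others lay on H3K27ac. The whole GATA3 list showed the same order, with 77.4% of shared and 22.3% of other regions on H3K27ac. Of the 46 stronger H3K27ac regions, 38 overlapped a factor, against 70% of such regions in the list.

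The 18 shared places often ranked differently for the 2 factors. The signal percentiles differed by at least 50 points in 10 of 18 places, against 21.1% of 14275 shared places in the whole lists, a threshold chosen after the values were seen. BHLHE40 stood higher in 13 places and GATA3 in 5, where the lists gave BHLHE40 the higher percentile in 51.1%. The widest gaps were at the transfer RNA and PLEKHG2 place near ZFP36 (GATA3 8.23, BHLHE40 96.2) and at the place 36.3 kb upstream of BTG2 (GATA3 94.5, BHLHE40 7.34). Near equality was found 45.5 kb upstream of ZC3H12A and 5.46 kb past ZFP36L1. The 18 places involve 16 BHLHE40 regions, since the wide regions at ZFP36L1 and BTG1 each overlapped 2 GATA3 regions.

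Summits at the shared places were a median of 78 bp apart, with a range from 17 to 1868 bp, and 6 of 18 were within 50 bp. Over the whole list the median was 35 bp and 61.5% were within 50 bp. The distances over 500 bp were at BTG1 inside the wide BHLHE40 region (1868 bp), 5.33 kb upstream of ZFP36 (1142 bp) and at PAF1 and MED29 (574 bp). The closest pairs were 5.46 kb past ZFP36L1 and 36.3 kb upstream of BTG2, each with 17 bp.

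**Figure D4:**
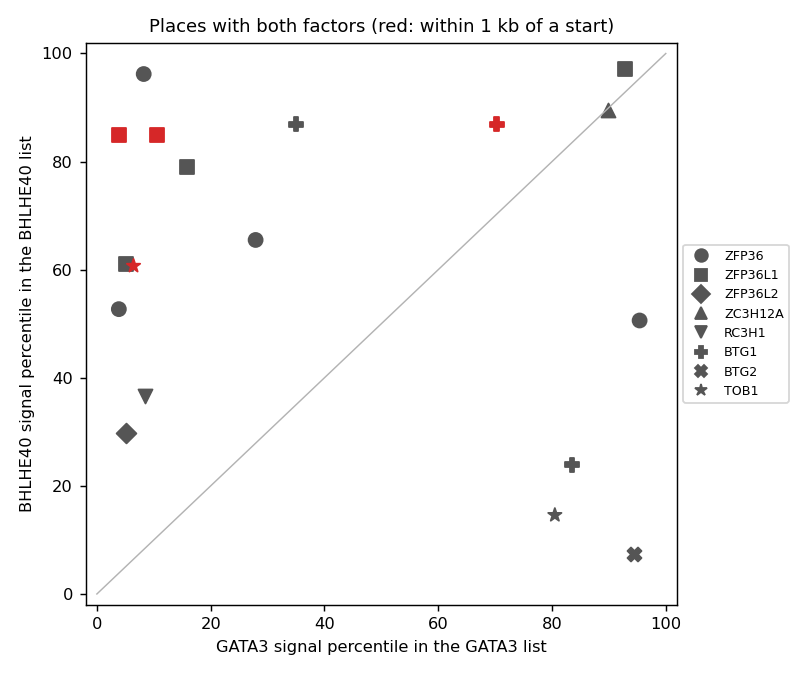
Signal percentile of BHLHE40 (y axis) against that of GATA3 (x axis), each in its own list, at the 18 places where a region of each overlaps; symbols give the gene and red marks places within 1 kb of a start. The 4 red points lie above the diagonal, with BHLHE40 ranked higher, and 5 of the other points lie below it.

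The wider machinery of messenger RNA decay was counted from a list of 45 genes for deadenylation, decapping, exonucleases and their partners, all found in the gene table. BHLHE40 lay at the start of 39 (86.7%), H3K27ac at that of 40 (88.9%) and GATA3 at that of 20 (44.4%), against the 47.1%, 55.3% and 22.2% of protein-coding genes given above. The highest BHLHE40 signal values at these starts were those of TOB2, a close relative of TOB1 (33.4, rank 1043), PABPC1, the cytoplasmic poly(A)-binding protein (30.7, rank 1277), PNRC1, a cofactor linked to decapping (24.0, rank 2148), and ZC3H12D, a relative of ZC3H12A (22.5, rank 2458). ZC3H12D had no H3K27ac region within 1 kb of either end of its record. Starts with none of the 3 kinds of region were those of CNOT10, BTG4, ZC3H12C and AGO2, named after their values were seen. The 9 genes of this list with no entry in the promoter table were counted by either end of their record. PABPC1, ZC3H12D and AGO2 are among them. For PABPC1 and ZC3H12D the region counted may therefore lie at the far end of the gene. The shares over protein-coding genes include genes without H3K27ac at a start. H3K27ac lay at the start of 11073 of the 20033, and most of these had BHLHE40 as well: 4068 with GATA3 and 4988 without. Whether the decay genes differ from other genes with H3K27ac at the start was not tested.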

How the data were processed

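Chromatin immunoprecipitation and sequencing was represented by 3 deposited lists in narrowPeak layout, each for a group of 2 samples, grouped by title. Per the submitters' processing notes, the build was hg38 and MACS2 was used. The aligner, the MACS2 version and the input used are not given in the sources used here. Per the labels' list names, the authors kept factor regions at an IDR of 0.05 and pooled the H3K27ac samples. The deposited score of the factor lists runs from 540 to 1000. The deposited signal value and −log10 q are per region, and what the signal is relative to is not stated. The deposited summit offset places the summit. The score of H3K27ac was not used.

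Regions were joined to RefSeq records of GRCh38.p14 by an overlap of at least 1 bp with the record plus 50 kb. The gene table gives no exons, introns or untranslated regions. Starts came from the RefSeq promoter table (15841 of 20033 protein-coding genes). The other 4192 were counted by either end of the record. Percentiles and ranks are within a list. Wilson intervals have 95% confidence. The overlap functions were tested on simulated data. Coordinates are 1-based. Values came from Python 3.11.15 with scipy 1.17.1, pandas 2.3.3 and numpy 2.4.6, and plots from matplotlib 3.10.9.

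The members, the gene lists and the alternatives were chosen with earlier results of these data known. The rule for named genes took all 8 members and described the strongest region of each list, the regions at the start and up to 3 shared places per window, and up to 4 genes of the wider list by BHLHE40 signal value. Alternatives were a flank of 25 kb, summit-based counting and overlap, a score of at least 830, a −log10 q of at least 5 and 5 kb around starts. The miRNA sequences were not used.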

Additional observations from a re-analysis of the deposited data

How the results depend on the processing

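Across 10 results, 39 alternatives were computed, 36 planned and 3 added after seeing the data. Of these, 34 stayed within 1.5 times the main count or, for a share, inside its Wilson interval. A count inside that tolerance need not name the same genes: by either end of the record GATA3 was again at 3 starts, with RC3H1 in place of ZFP36L1. The H3K27ac count in the windows was 46, not 101, where the −log10 q had to reach 5. With the summit required inside the H3K27ac region, 44.4% of GATA3 and 63.6% of BHLHE40 regions lay on H3K27ac, where the whole lists gave 33.3% and 55.4%. Members with GATA3 at the start numbered 1 at a score of at least 830, against 15.7% of protein-coding genes, and 6 within 5 kb, against 31.3%. No paired analysis was possible because the files give 1 list per group and no sample of its own, and leaving out a replicate was not run for that reason. Depth is unknown, so an unlisted region is not shown to be absent.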

Other observations

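Some regions of the windows lay at the starts of neighbouring genes, and which gene they act on was not measured. BHLHE40 had a signal value of 16.2 at the start of SUPT5H, a transcription elongation factor (percentile 80.8) and 11.9 at that of RPS16, a ribosomal protein (percentile 65.5), both in the window of ZFP36. At RPS16 H3K27ac reached 9.67 (percentile 97.6) and GATA3 8.34 (percentile 27.9). In the window of ZC3H12A the start of MEAF6, a subunit of histone acetyltransferase complexes, combined H3K27ac at percentile 98.8 with BHLHE40 at percentile 1.81.

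The H3K27ac signal value and the −log10 q can rank regions differently. In the ZFP36L1 record, 2 H3K27ac regions with a signal value of 1.95, at percentiles 0.50 and 0.517 of their list, had a −log10 q of 5.29 and 5.49.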
